A study of Mus musculus with 12 samples.

Results

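Mouse embryos at E10.5, in the middle of organogenesis, were set against embryos at a stage before it, the morula, and a stage after it, E16.5. The comparison used 8 of the series' 12 microarrays, chosen by their stage labels: 3 arrays of E10.5, 2 of morula and 3 of E16.5. The main quantity, called the contrast here, was the E10.5 mean minus the average of the morula mean and the E16.5 mean, on the log2 scale of the deposited signals. A positive contrast means a higher signal at E10.5.

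Each E10.5 array and each E16.5 array held RNA of 1 whole embryo taken from its mother and washed in PBS. Each morula array held a pool of embryos (E2.5), with the number per pool not given, collected 48 hours after the day of the vaginal plug, which counted as E0.5. All mothers were superovulated and mated naturally, eggs at the pronuclear stage were washed and kept in KSOM, an embryo culture medium, and labelling started from 2 ng of total RNA per sample. The labels give no strain, genotype or treatment that separates the groups. The remaining 4 arrays (pronuclear and 2-cell embryos, 2 each) entered the fit and are given only where a gene's history before the morula matters. The labels do not say which embryos shared a mother, so a p-value measures only the spread between these samples.

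By E10.5 the embryo has its body axis, neural tube, somites, pharyngeal arches, limb buds and a beating heart, and its blood is filled with primitive red cells that were born in the yolk sac. The Hox genes, the hedgehog, Notch, Bmp, Fgf and Wnt pathways and retinoic acid are known to pattern these rudiments. A morula is a ball of blastomeres that have begun to form an outer epithelium, and at E16.5 liver, muscle, skin and the definitive red cells are in place. RNA came from whole embryos, so the share of a tissue and the amount of RNA per cell cannot be told apart in any result below.

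Correlations across genes lay between 0.978 and 0.992 for arrays of the same stage and between 0.712 and 0.886 for arrays of different stages among the 3. The median SD of a gene was 0.22 among the E10.5 embryos, 0.27 between the morula pools and 0.32 among the E16.5 embryos, on the log2 scale. Olfactory and vomeronasal receptor genes (1401) served as a gauge of dim signal, and the 95th percentile of their means was 5.38 at E10.5, 6.10 at the morula stage and 5.23 at E16.5. A gene at or under that value is called within the receptor range at that stage, where its signal cannot be told from background and a difference has no interpretable lower end. The column names give the E10.5 and E16.5 arrays 1 date and the morula arrays another, so stage, date and pooling cannot be told apart in E10.5 minus morula, while E10.5 minus E16.5 lies within 1 date and within single embryos.

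Of 21156 genes, 4839 (22.9%) had a higher and 4915 (23.2%) a lower signal at E10.5 than the average of the other stages, at an adjusted p under 0.05 (limma, Benjamini-Hochberg over all genes). The average hides what each stage contributes, so both differences were tested as well. Against the morula 5335 genes (25.2%) were higher and 5638 (26.6%) lower at E10.5, and against E16.5 4287 (20.3%) were higher and 3700 (17.5%) lower. Transient genes, higher at E10.5 than at both stages, numbered 2266 (10.7%), and genes that dipped, lower than at both, numbered 1073 (5.07%).

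The contrast alone therefore named more genes than were transient. Of the 4839 genes with a higher contrast, 2266 (46.8%) were higher than at both stages, 1663 (34.4%) were higher than the morula only and 647 (13.4%) were higher than E16.5 only. Another 186 were higher than the morula but lower than E16.5. Of the 4915 genes with a lower contrast, 1073 (21.8%) were lower than at both stages, 2195 (44.7%) were lower than the morula only and 1221 (24.8%) were lower than E16.5 only.

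**Figure D1:**
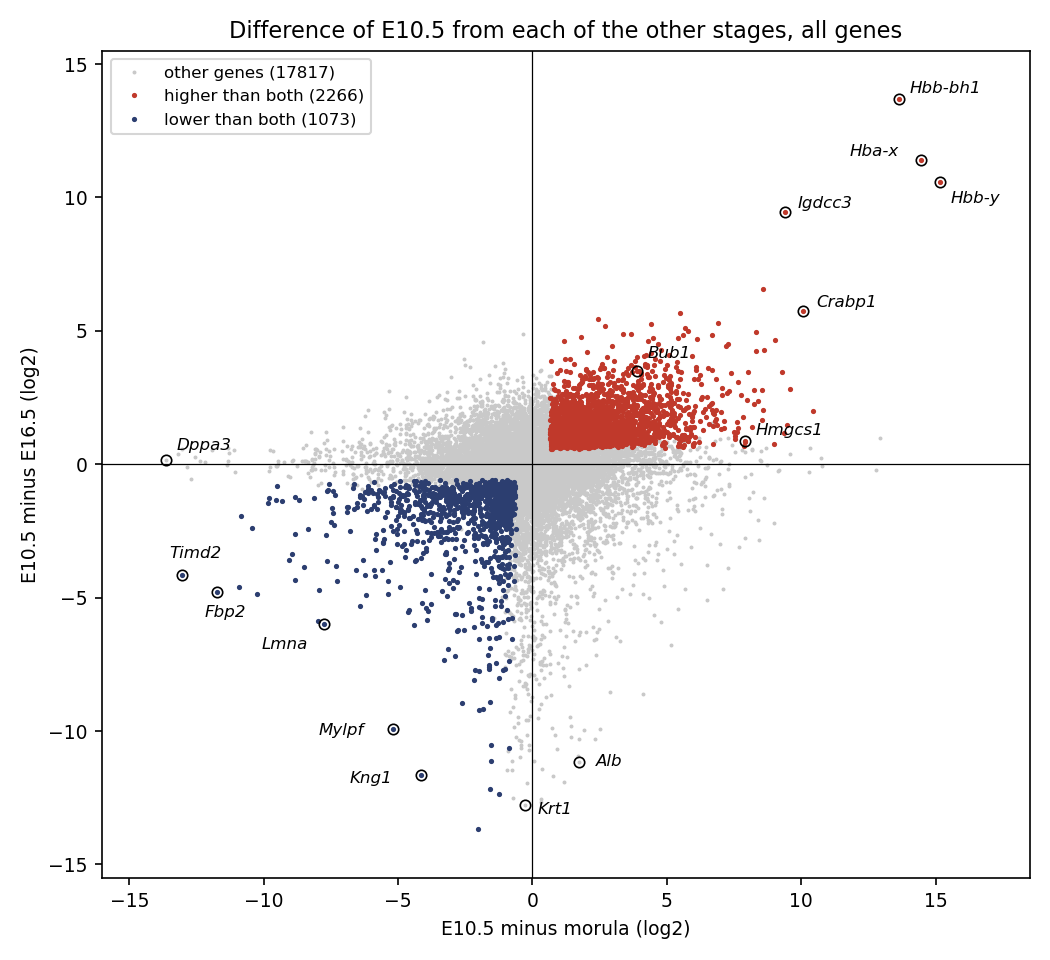
Each point is 1 of 21156 genes, with E10.5 minus morula on the horizontal axis and E10.5 minus E16.5 on the vertical axis, both in log2 units. Red points (2266) passed both tests upward, blue points (1073) passed both downward, and grey points did not pass both in 1 direction. The 3 embryonic globin genes lie alone at the upper right, Dppa3 sits far left near the horizontal axis because it differed from the morula only, and Alb and Krt1 sit far down because they differed mainly from E16.5.

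The transient genes stood above the morula by a median of 2.18 log2 units and above E16.5 by a median of 1.37, and in 1738 of 2266 (76.7%) the difference from the morula was the larger one. For the genes that dipped the median differences were -1.87 from the morula and -1.55 from E16.5. In 1625 transient genes both differences exceeded 1 log2 unit, in 387 they exceeded 2 and in 30 they exceeded 4. Among genes that dipped the same counts were 726, 179 and 22. In 2243 of the transient genes and 1046 of the genes that dipped, all E10.5 arrays lay beyond all arrays of the other stages, which over all genes held for 15.2% upward and 8.97% downward.

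Scaling moved the balance between the directions. With arrays centred on their upper quartile 1772 genes were above both stages, all of them among the 2266, and 1521 were below, among them all 1073. Cyclic loess gave 1817 above and 1364 below, and centring on the receptor median 2115 above and 739 below. For the contrast itself the split was 4839 higher and 4915 lower as deposited, 5408 and 3680 centred on the receptor median, and 4022 and 6381 centred on the upper quartile.

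The largest contrasts belonged to the embryonic globin genes, which encode the oxygen carrier of primitive red cells. Hbb-bh1 (chr7:103841636-103843164, minus strand), a beta-like chain, read 18.05, 18.18 and 18.26 in the E10.5 embryos, against 4.64 and 4.40 in the morulae and 4.06, 4.83 and 4.52 in the E16.5 embryos. The E10.5 arrays stood far above all others, and both other stages lay within the receptor range. Its contrast was 13.67 ± 0.25 (SE, limma adjusted p = 1.92e-14).

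Hba-x (chr11:32276400-32278116, plus strand), the zeta-like alpha chain, read 18.93, 18.95 and 19.03 at E10.5, against 4.58 and 4.48 at the morula stage and 7.15, 7.41 and 8.12 at E16.5, a contrast of 12.92 ± 0.24. Hbb-y (chr7:103851745-103853240, minus strand), the epsilon-like beta chain, read 19.36, 19.46 and 19.41 at E10.5, against 4.14 and 4.38 at the morula stage and 8.90, 8.47 and 9.15 at E16.5, a contrast of 12.86 ± 0.24. Unlike Hbb-bh1, these genes remained above the receptor range at E16.5.

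Igdcc3 (chr9:65141154-65185872, plus strand), a cell surface protein of the immunoglobulin superfamily, read 16.57, 16.16 and 16.33 at E10.5, against 7.09 and 6.80 at the morula stage and 6.77, 7.02 and 6.92 at E16.5. The arrays of both other stages overlapped, far below those of E10.5, and the contrast was 9.43 ± 0.22 (limma adjusted p = 3.19e-13). Crabp1 (chr9:54764748-54773110, plus strand) and Crabp2 (chr3:87948666-87953376, plus strand) encode the cellular retinoic acid binding proteins. Crabp1 read 15.69, 15.77 and 15.72 at E10.5, against 5.58 and 5.71 in morulae and 10.06, 9.66 and 10.28 at E16.5, and Crabp2 read 15.38, 15.68 and 15.47 at E10.5, against 6.57 and 7.30 in morulae and 8.65, 8.81 and 9.34 at E16.5. E10.5 was the highest of the 3 stages for both genes, but Crabp2 was higher still before the morula, with 16.35 ± 0.06 in pronuclear embryos (SD, n = 2), where Crabp1 had 7.57 ± 0.12 (SD, n = 2).

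The other genes among the 10 with the largest smaller difference were Adgrv1, a very large adhesion receptor, Ccnjl, a cyclin-like gene, Tead2, a DNA-binding partner of the Hippo pathway's coactivators, and Lix1, named for its expression in the limb. Adgrv1 (chr13:81095068-81633154, minus strand) had a contrast of 5.59 ± 0.24, Ccnjl (chr11:43528749-43586999, plus strand) of 6.10 ± 0.25, Tead2 (chr7:45215753-45233635, plus strand) of 5.40 ± 0.29 and Lix1 (chr17:17402672-17459388, plus strand) of 5.39 ± 0.24. Tead2 read 12.89, 13.22 and 12.66 at E10.5, against 6.92 and 7.56 in morulae and 8.28, 7.32 and 7.83 at E16.5. All 10 were chosen among genes whose E10.5 arrays do not overlap another stage.

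**Figure D2:**
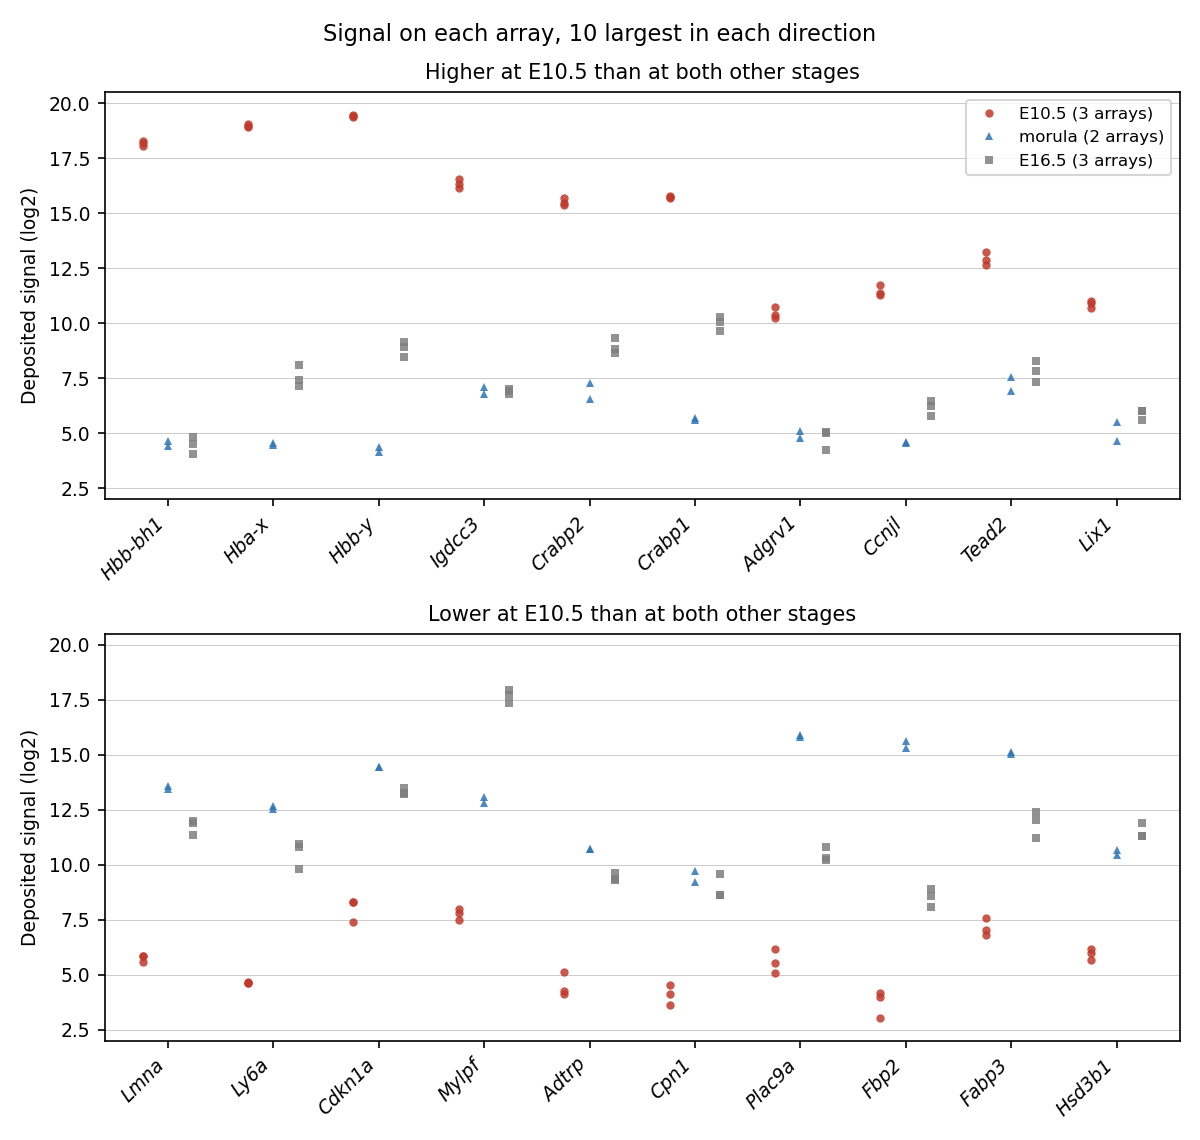
Deposited log2 signal of single genes on each array of E10.5 (red circles), morula (blue triangles) and E16.5 (grey squares), for the 10 genes with the largest smaller difference above both stages (upper panel) and the 10 below both (lower panel). Genes were chosen so that the E10.5 arrays do not overlap the others. The 3 globin genes reach 18.05 to 19.46 at E10.5, and the lowest E10.5 signal in the lower panel is 3.04 for Fbp2. Signals of different genes are not comparable as amounts.

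Among genes that dipped, the largest smaller difference was that of Lmna (chr3:88481148-88509956, minus strand), which encodes the A-type lamins of the nuclear envelope. Lmna read 5.60, 5.85 and 5.84 at E10.5, against 13.44 and 13.60 in morulae and 11.91, 11.35 and 11.99 at E16.5. The E10.5 embryos were close together and far below both other stages, with differences of -7.75 from the morula and -5.99 from E16.5 (contrast -6.87 ± 0.22, limma adjusted p = 1.15e-11).

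Cdkn1a (chr17:29090979-29100722, plus strand), an inhibitor of cyclin-dependent kinases that is a known target of p53, read 8.32, 8.29 and 7.42 at E10.5, against 14.42 and 14.45 in morulae and 13.21, 13.25 and 13.49 at E16.5, with a contrast of -5.87 ± 0.24. Ly6a (chr15:74994877-74998031, minus strand), a membrane-anchored surface antigen, read 4.61, 4.70 and 4.61 at E10.5, against 12.67 and 12.53 in morulae and 10.92, 9.80 and 10.82 at E16.5, with a contrast of -6.92 ± 0.36. Ly6a lay within the receptor range at E10.5, and Cdkn1a stayed above it.

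Some of the strongest dips were unequal. Fbp2 (chr13:62836877-62858400, minus strand), a fructose bisphosphatase of gluconeogenesis, read 4.16, 3.04 and 3.98 at E10.5, against 15.64 and 15.31 in morulae and 8.90, 8.09 and 8.59 at E16.5. Mylpf (chr7:127211608-127214298, plus strand), a regulatory light chain of fast muscle myosin, read 7.99, 7.47 and 7.81 at E10.5, against 13.07 and 12.80 in morulae and 17.93, 17.36 and 17.72 at E16.5. The morula was the high stage for Fbp2, and E16.5 was the high stage for Mylpf. Fbp2 lay within the receptor range at E10.5.

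Timd2 (chr11:46668960-46707104, minus strand), a cell surface receptor of the immunoglobulin and mucin domain family, had the lowest contrast of all named genes, -8.60 ± 0.24, with 5.39, 5.66 and 5.21 at E10.5, against 18.45 and 18.46 in morulae and 9.57 ± 0.52 at E16.5 (SD, n = 3). Fabp3 (chr4:130308595-130315463, plus strand), a fatty acid binding protein, had a contrast of -6.33 ± 0.31, Hsd3b1 (chr3:98852194-98859794, minus strand), an enzyme of steroid synthesis, of -5.09 ± 0.22, Adtrp (chr13:41763148-41847684, minus strand) of -5.54 ± 0.25 and Cpn1 (chr19:43956307-43986556, minus strand), a subunit of carboxypeptidase N, of -5.12 ± 0.28. Plac9a (chr14:25887932-25903100, minus strand) and Plac9b (chr14:26167317-26182480, minus strand) had contrasts of -7.55 and -7.76, but they are near-identical copies whose probes may read both.

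The promoters below show how far single members of both sets differ in base composition, each with its 150 bases upstream of the RefSeq transcription start on GRCm38.p6, read 5′ to 3′ on the gene's strand, with CG dinucleotides in capitals. They belong to the first 3 transient genes and the first 3 genes that dipped, in order of the smaller difference, that have exactly 1 start in the table, with the Plac9 copies passed over. Hba-x is at chr11:32276450-32276599, plus strand, Hbb-y at chr7:103853208-103853357, minus strand, Igdcc3 at chr9:65141004-65141153, plus strand, Mylpf at chr7:127211458-127211607, plus strand, Cpn1 at chr19:43986521-43986670, minus strand and Fbp2 at chr13:62858401-62858550, minus strand. The array annotation places some starts further upstream than RefSeq does. By the gene positions given above, the Hba-x window lies within the annotated gene. The Hbb-y and Cpn1 windows overlap the 5′ ends of theirs.
Hba-x: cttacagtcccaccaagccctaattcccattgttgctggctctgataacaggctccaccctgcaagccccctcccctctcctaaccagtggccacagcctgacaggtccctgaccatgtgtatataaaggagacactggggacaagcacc
Hbb-y: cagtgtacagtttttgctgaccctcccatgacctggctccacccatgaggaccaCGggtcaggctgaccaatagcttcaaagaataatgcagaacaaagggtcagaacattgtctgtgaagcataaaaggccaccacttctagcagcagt
Igdcc3: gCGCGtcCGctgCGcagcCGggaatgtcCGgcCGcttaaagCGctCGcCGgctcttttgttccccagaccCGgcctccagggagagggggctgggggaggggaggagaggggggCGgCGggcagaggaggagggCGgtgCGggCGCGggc
Mylpf: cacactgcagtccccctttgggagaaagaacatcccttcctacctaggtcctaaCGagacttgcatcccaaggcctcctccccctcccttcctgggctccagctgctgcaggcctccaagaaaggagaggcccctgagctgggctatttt
Cpn1: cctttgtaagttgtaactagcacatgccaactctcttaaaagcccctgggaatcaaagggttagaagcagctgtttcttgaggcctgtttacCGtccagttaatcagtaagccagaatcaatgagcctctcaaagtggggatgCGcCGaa
Fbp2: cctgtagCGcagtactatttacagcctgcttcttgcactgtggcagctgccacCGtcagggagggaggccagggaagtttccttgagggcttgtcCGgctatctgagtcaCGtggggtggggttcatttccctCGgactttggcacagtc

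Over 250 upstream bases Igdcc3 held 28 CG dinucleotides, a ratio of observed to expected CG of 0.89 at 72.0% G and C. The globin promoters held 1 CG each (ratios of 0.05 for Hba-x and 0.09 for Hbb-y), and the 3 promoters of genes that dipped held 1 (Mylpf), 7 (Cpn1) and 5 (Fbp2), with ratios of 0.05, 0.5 and 0.29. The globin promoters thus do not follow the direction of the whole sets given next, while the other printed members do. The Hba-x window holds TATAAA, which was found on either strand in 13.0% of all 27025 genes of the table, and the Hbb-y window holds CCAAT, found in 34.5%. No overlap of these motifs with others was examined.

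Over each whole set, a ratio above 0.6 was found in 1367 of 1797 transient genes (76.1%) and in 357 of 859 genes that dipped (41.6%). Among genes above the receptor range at 1 of the 3 stages or more the share was 59.0%, but a promoter was matched for 79.8% of those, too few by the coverage required here, so the check of both sets against this background is void. The median ratio was 0.78 in transient genes and 0.53 in genes that dipped, and the median G and C content 61.6% and 57.2%. Promoters were matched for 82.0% of each set, counted over genes on the chromosomes that the table covers, with the first listed start where a gene had several. TATAAA was found in 6.5% of the transient genes and 10.2% of those that dipped, CCAAT in 39.5% and 34.5%, and CACCC in 55.6% and 61.5%. These shares are a description of sequence and were not tested.

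Gene lists describe which tissues and pathways the members belong to, and are read here against all genes. Over all genes 10.7% were above both stages and 5.07% below, with a median contrast of -0.11. The Hox, somite, limb, arch and neural tube lists had 39.4% to 64.7% of their members above both stages and none below. Lists of lysosome, epithelial and fatty acid oxidation genes had none above and 28.6% to 45.8% below.

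**Figure D3:**
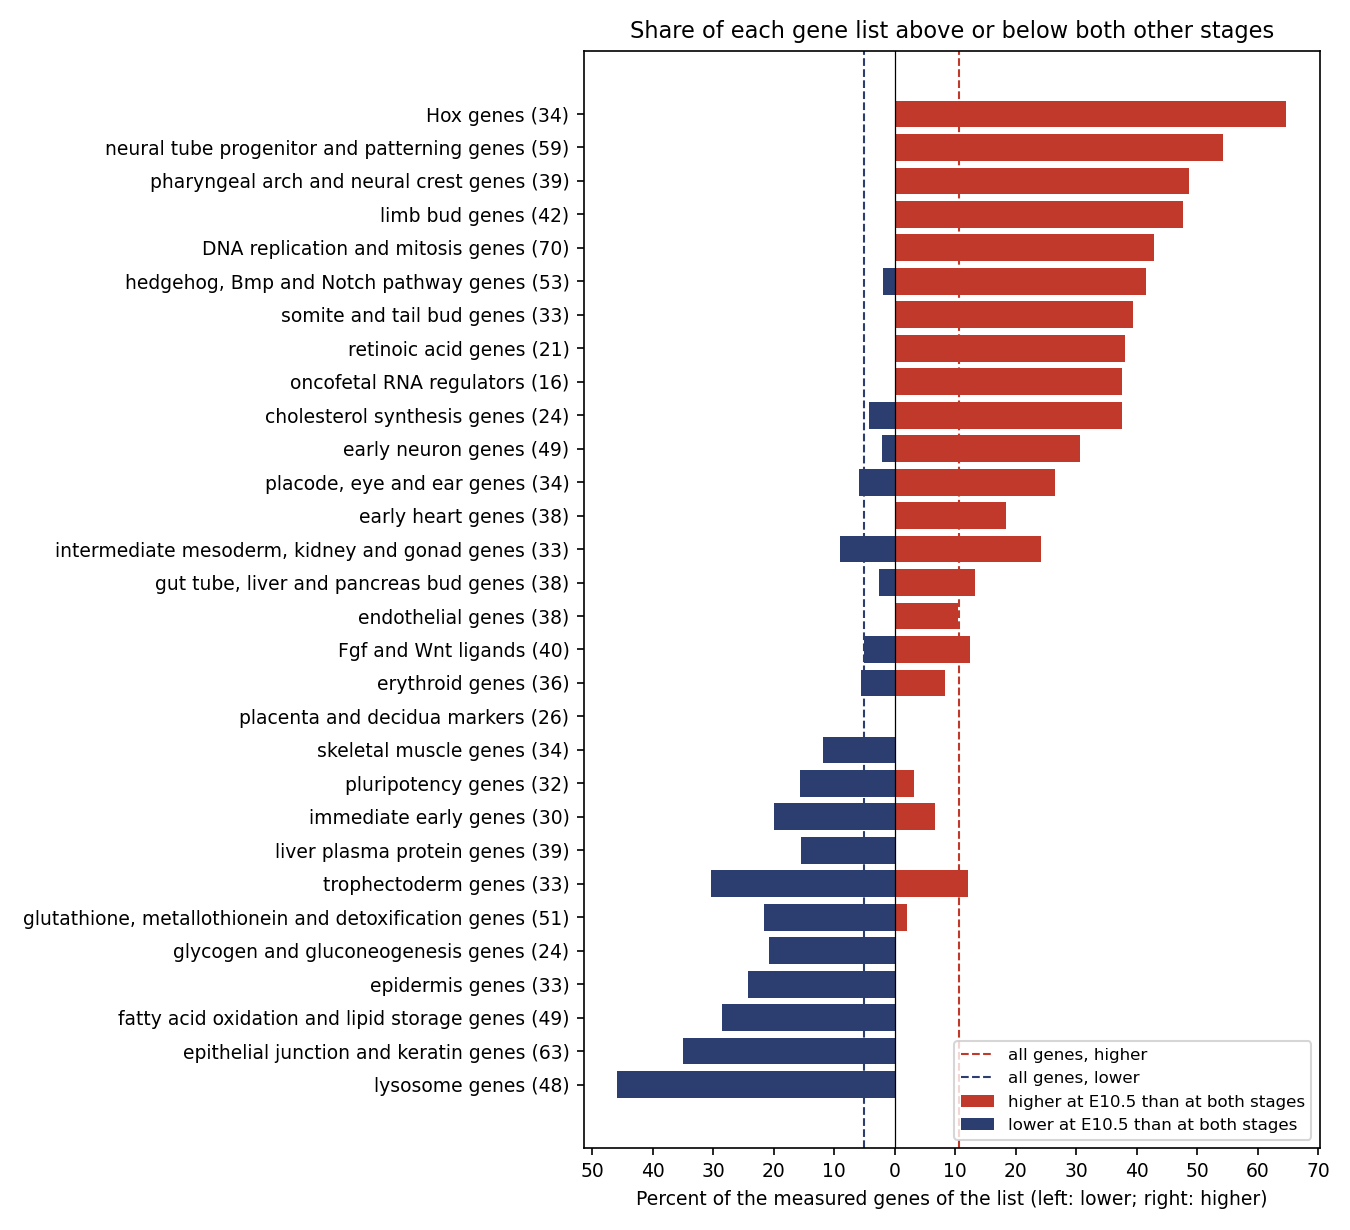
Percent of the measured genes of each list (number measured in brackets) that were higher at E10.5 than at both other stages (red, to the right) or lower than at both (blue, to the left). Dashed lines give the same over all 21156 genes, 10.7% and 5.07%. Hox genes lead on the right with 64.7%, and lysosome genes on the left with 45.8%.

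Hox genes encode homeodomain factors that give segments their identity along the body axis, and lower numbers are known to act nearer the head. Of 34 measured Hox genes, 26 had a higher contrast and none a lower one (adjusted p under 0.05), 22 were above both stages, and the median contrast was 1.61. The largest fitted contrast was that of Hoxb9 (chr11:96271330-96276595, plus strand), which read 7.69, 7.92 and 8.04 at E10.5, against 3.21 and 3.03 in morulae and 3.82, 3.50 and 3.44 at E16.5, with a contrast of 4.53 ± 0.22 (limma adjusted p = 4.51e-10). Hoxd11 (chr2:74679392-74687741, plus strand) followed with 8.31, 8.87 and 9.20 at E10.5, against 3.82 and 3.77 in morulae and 5.38, 4.76 and 5.12 at E16.5, and then Hoxd10 (chr2:74691090-74695106, plus strand) with a contrast of 3.82 ± 0.24. All 3 lay within the receptor range in morulae and at E16.5, so their contrasts depend on background there and their order carries no meaning.

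All 4 clusters took part, with 6 of 9 HoxA genes, 7 of 9 HoxB genes, 5 of 9 HoxC genes and 4 of 7 HoxD genes above both stages. Genes with low and high numbers differed in how many were called. Of 25 genes numbered 1 to 10, 20 were above both stages and 2 lay within the receptor range at all 3 stages, whereas of 9 genes numbered 11 to 13, 2 (Hoxd11 and Hoxd13) were above both and 8 lay within the receptor range at all 3. Hoxd13 was among those 8, with 4.99 ± 0.22 at E10.5 (SD, n = 3), against 3.11 ± 0.23 in morulae (SD, n = 2) and 3.48 ± 0.41 at E16.5 (SD, n = 3).

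Hoxa5 and Hoxc6 kept an intermediate level at E16.5. Hoxa5 (chr6:52201754-52204587, minus strand) read 10.18, 10.53 and 10.30 at E10.5, against 5.70 and 6.25 in morulae and 7.98, 7.78 and 7.70 at E16.5, and Hoxc6 (chr15:102998257-103011881, plus strand) read 10.10, 10.34 and 9.83 at E10.5, against 5.62 and 6.29 in morulae and 8.14, 7.75 and 8.16 at E16.5. Hoxb7 and Hoxd8 passed against the morula only and Hoxd9 against E16.5 only, and for Hoxd8 the E16.5 arrays (6.91, 5.47 and 6.55) overlapped those of E10.5 (6.68, 6.35 and 6.70). Hoxa4 showed no call, with a contrast of 0.25 ± 0.26 (limma adjusted p = 0.473).

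**Figure D4:**
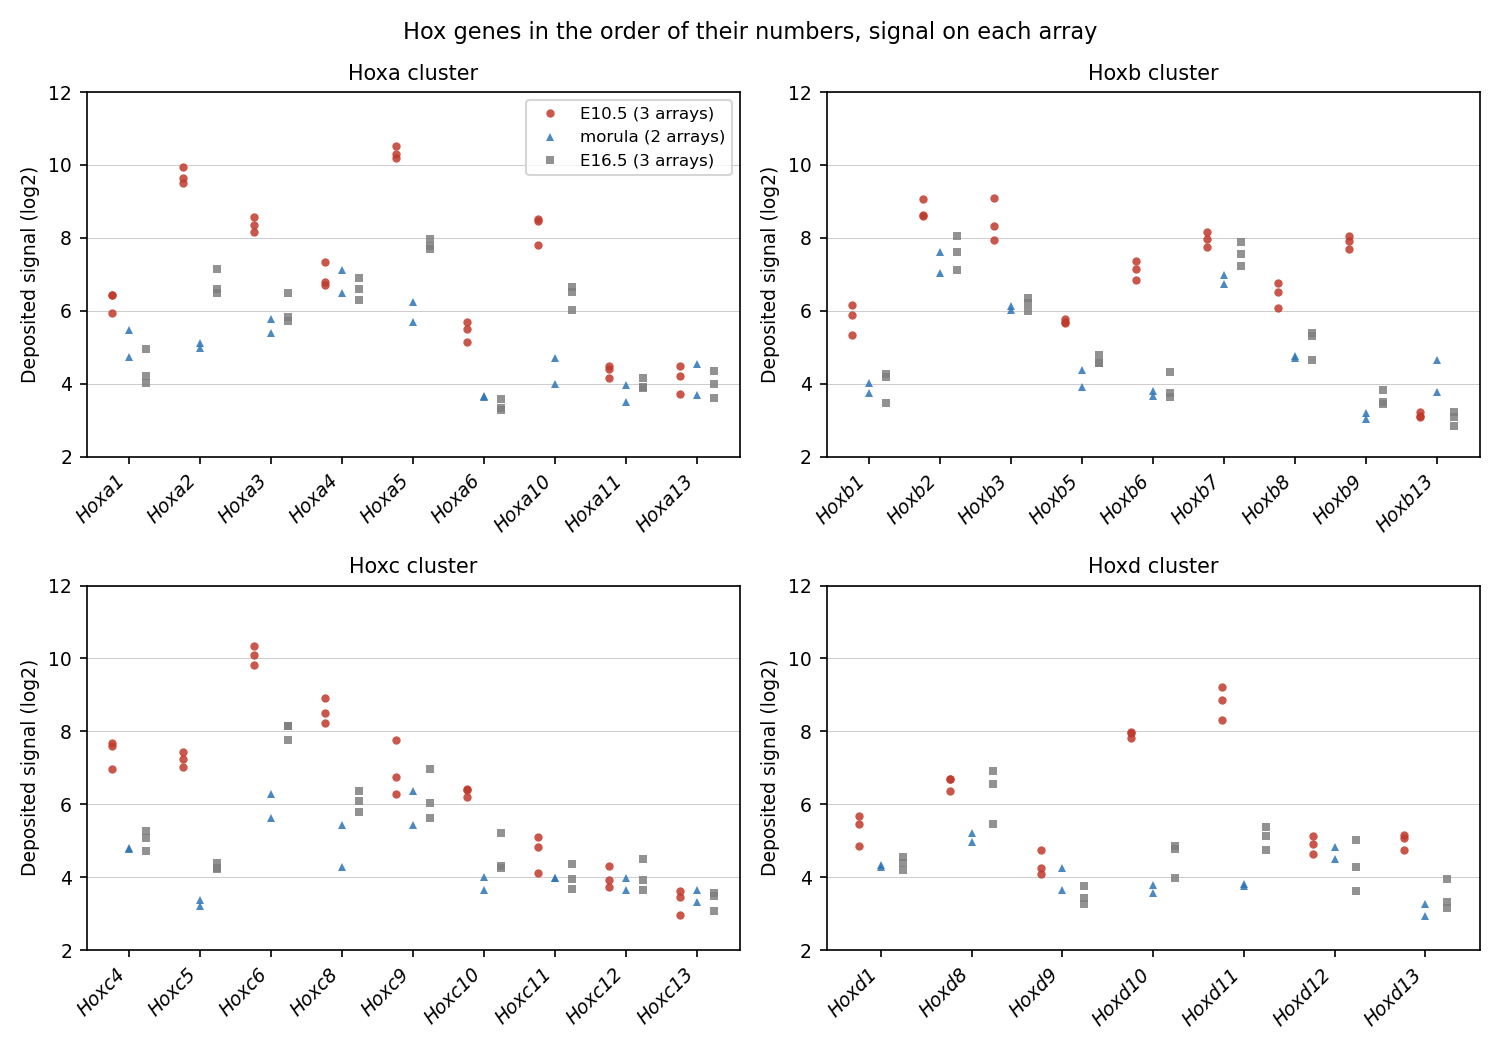
Deposited log2 signal of the 34 measured Hox genes on each array, in 4 panels by cluster and in the order of the gene numbers, with E10.5 as red circles, morula as blue triangles and E16.5 as grey squares. The E10.5 arrays stand clear of the others in Hoxa5, Hoxb9, Hoxc6 and Hoxd11. The last gene of each cluster stays low on the axis and within the receptor range at all 3 stages, though Hoxd13 was higher at E10.5 than at both other stages.

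Limb bud genes had 20 of 42 members above both stages and none below, with 29 higher and 1 lower in the contrast (median contrast 1.11). Gli3 (chr13:15463235-15730026, plus strand), a transcription factor of hedgehog signalling that patterns the limb plate, read 12.92, 12.69 and 12.82 at E10.5, against 4.55 and 4.42 in morulae and 8.89, 8.14 and 8.71 at E16.5, a contrast of 6.28 ± 0.22. The homeodomain genes Meis2 (chr2:115861264-116065839, minus strand) and Meis1 (chr11:18880428-19018969, minus strand), which mark the proximal limb, had contrasts of 5.52 ± 0.20 and 5.04 ± 0.24. Meis2 was higher still in pronuclear embryos, with 17.37 ± 0.18 (SD, n = 2), against 14.26 ± 0.07 at E10.5 (SD, n = 3), while Meis1 had 5.79 ± 0.14 in pronuclear embryos (SD, n = 2) and 13.96 ± 0.14 at E10.5 (SD, n = 3). Tbx3 ran the other way in the contrast, at -1.22 ± 0.24, because it was high in morulae (11.58 and 11.11) while E10.5 (7.58, 7.34 and 7.35) stood above E16.5 (5.75, 6.31 and 5.75).

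Somite and tail bud genes had 13 of 33 members above both stages and none below (median contrast 0.72). Dll1 (chr17:15367354-15376872, minus strand), a Notch ligand of the segmentation clock, read 9.67, 10.20 and 10.11 at E10.5, against 4.47 and 5.22 in morulae and 7.59, 6.56 and 6.71 at E16.5, with a contrast of 4.09 ± 0.32. Foxc1 (chr13:31806646-31810643, plus strand), a forkhead factor of paraxial mesoderm, had a contrast of 3.98 ± 0.29, and Meox1 (chr11:101877510-101894374, minus strand), a homeodomain factor of the somite, of 3.80 ± 0.28. Meox1 lay within the receptor range at both other stages. Cdx2, which acts in the tail bud and in the trophectoderm, was the exception, with 4.70, 5.61 and 5.45 at E10.5, against 10.65 and 10.39 in morulae and 6.13, 5.44 and 5.74 at E16.5.

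Pharyngeal arch and neural crest genes had 19 of 39 members above both stages, none below, and a median contrast of 1.59. Nr2f2 (chr7:70351946-70366746, minus strand), an orphan nuclear receptor of mesenchyme and veins, read 14.00, 13.74 and 13.99 at E10.5, against 4.37 and 4.33 in morulae and 11.07, 10.99 and 11.24 at E16.5, a contrast of 6.19 ± 0.26. Alx1 (chr10:103007847-103029054, minus strand), a homeodomain factor of the frontonasal mesenchyme, read 11.10, 10.76 and 10.84 at E10.5, against 4.57 and 4.92 in morulae and 8.27, 7.10 and 7.71 at E16.5. The embryos of each stage kept together and E10.5 stood highest in both genes. Tfap2c, shared by crest, ectoderm and trophectoderm, had a contrast of -1.65 ± 0.26, with a difference of -4.44 from the morula and of 1.15 from E16.5, both past the threshold.

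Neural tube progenitor and patterning genes had 32 of 59 members above both stages, none below, and no member with a lower contrast (39 higher, median 1.07). Msi1 (chr5:115429599-115455698, plus strand), an RNA-binding protein of neural progenitors, read 14.26, 14.06 and 14.22 at E10.5, against 6.44 and 8.56 in morulae and 9.65, 8.78 and 9.57 at E16.5, where the morula pools differed from each other by more than the embryos of either other stage. Zic1 (chr9:91358058-91365810, minus strand), a zinc finger factor of the dorsal neural tube, had a contrast of 5.39 ± 0.22. Sox2 (chr3:34650005-34652461, plus strand), which keeps neural progenitors and pluripotent cells undifferentiated and was a member of 4 lists, read 11.51, 11.79 and 11.91 at E10.5, against 8.05 and 8.07 in morulae and 7.25, 5.74 and 7.52 at E16.5. Its E10.5 arrays were above those of both stages, also above those of the morula, a pluripotent stage.

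Early neuron genes had 15 of 49 members above both stages and 1 below, with 28 higher and 2 lower in the contrast (median 1.17). Nefm (chr14:68082590-68125004, minus strand), a neurofilament subunit of axons, read 11.57, 11.31 and 11.55 at E10.5, against 2.58 and 3.27 in morulae and 8.34, 8.68 and 9.06 at E16.5. Neurod4 (chr10:130268152-130280240, minus strand), a proneural factor, read 8.73, 7.31 and 7.81 at E10.5, against 3.38 and 3.17 in morulae and 3.44 ± 0.39 at E16.5 (SD, n = 3), and both other stages lay within the receptor range. St18 (chr1:6487231-6860940, plus strand), a zinc finger factor of newborn neurons, had a contrast of 4.12 ± 0.38. Neurod6, a factor of cortical neurons, read 3.94, 4.60 and 4.27 at E10.5, against 4.38 and 4.60 in morulae and 9.60, 8.35 and 9.73 at E16.5, and was high at E16.5 only.

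In placode, eye and ear genes 9 of 34 members were above both stages and 2 below, with a median contrast of 0.35. Otx2 (chr14:48657677-48667644, minus strand), a homeodomain factor of the forebrain and eye, read 10.81, 11.43 and 10.55 at E10.5, against 7.35 and 7.75 in morulae and 6.08, 5.50 and 6.61 at E16.5. Pax6 (chr2:105668896-105697364, plus strand), required for the eye, had a contrast of 2.84 ± 0.25. The lens crystallin Cryab was among the 2 that dipped, with a contrast of -4.37 ± 0.25.

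Hedgehog, Bmp and Notch pathway genes had 22 of 53 members above both stages, 1 below and a median contrast of 1.63, with 36 higher and 2 lower in the contrast. The 22 were Shh, Ptch1, Smo, Gli2, Gli3 and Boc of the hedgehog pathway, Bmp4, Gdf11, Smad6, Smad7, Id1 and Id3 of the Bmp side, and Notch1, Notch3, Dll1, Dll3, Jag1, Hes5, Hey1, Nrarp, Lfng and Mfng of the Notch side. They include ligands (Shh, Bmp4, Dll1), receptors (Ptch1, Notch1) and transcriptional targets (Id1, Hes5). The ligand Bmp4 (chr14:46383520-46390669, minus strand) read 10.23, 10.71 and 9.96 at E10.5, against 4.33 ± 0.25 in morulae (SD, n = 2) and 7.78, 8.21 and 9.11 at E16.5, a contrast of 3.95 ± 0.34. Bmp6 was the member below both stages, and Gdf3, a ligand of pluripotent cells, had a contrast of -1.42 ± 0.31 and lay within the receptor range at all 3 stages.

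The ligand Shh, the receptor Ptch1 and the Notch target Hes5 were looked up after their values were seen, as textbook members of their pathways. Shh (chr5:28456815-28467101, minus strand) averaged 9.24 ± 0.26 at E10.5 and 8.41 ± 0.23 at E16.5 (SD, n = 3 each), a difference of 0.84 (limma adjusted p = 0.0172). Ptch1 (chr13:63508336-63565521, minus strand) read 12.53, 12.48 and 12.75 at E10.5 and 11.30, 10.83 and 10.90 at E16.5, a difference of 1.58. Hes5 (chr4:154960923-154962371, plus strand) was higher at E10.5 than at E16.5 by 1.66. The E10.5 arrays stood above the E16.5 arrays in all 3 genes.

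Fgf and Wnt ligands, the growth factors of many of these rudiments, had shares close to those of all genes. Of 40 measured ligands 5 (12.5%) were above both stages and 2 (5%) below, and the median contrast was 0.06. The 5 were Fgf15, Wnt8b, Wnt1, Wnt2 and Wnt7b, and the 2 were Fgf7 and Fgf2. Fgf15 (chr7:144896532-144900953, plus strand) read 8.24, 8.09 and 7.05 at E10.5, against 5.97 and 5.13 in morulae and 6.32, 5.11 and 6.18 at E16.5, and Fgf7 (chr2:126034658-126091185, plus strand), a ligand that mesenchyme sends to epithelium, read 5.02, 4.99 and 4.40 at E10.5, against 5.70 and 5.78 in morulae and 7.89, 7.35 and 7.88 at E16.5. Fgf7 lay within the receptor range at E10.5 and in morulae, so its difference between those stages cannot be told from background.

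At all 3 stages 18 of the 40 ligands lay within the receptor range, among them Fgf8, a ligand of the limb ridge and the midbrain boundary, with 5.22, 4.75 and 5.11 at E10.5, and Wnt3a, a ligand of the tail bud, with 4.14, 3.77 and 4.38 at E10.5. Fgf10, the limb mesenchyme's ligand, read 6.45, 7.06 and 6.91 at E10.5, against 6.27 and 7.04 in morulae and 6.27, 6.90 and 6.17 at E16.5, and the stages overlapped. Fgf8 was high before the morula, with 10.68 ± 0.14 in pronuclear embryos (SD, n = 2). The number of ligands above both stages depended on the setting, with 2 when the second morula array was left out and 8 after a further quantile normalization. Below both stages there were 0 to 2 ligands over the settings. There were 0 with arrays centred on the receptor median, with either morula array left out and with the third E10.5 array left out.

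Of 21 retinoic acid genes 8 were above both stages and none below, and 9 had a higher and 6 a lower contrast (median 0.52). The 8 were the binding proteins Crabp1 and Crabp2, the synthesising enzyme Aldh1a2, the degrading enzymes Cyp26b1 and Cyp26c1, the uptake receptor Stra6 and the nuclear receptors Rara and Rarb. Aldh1a2 (chr9:71215789-71296243, plus strand), the main synthesising enzyme of the early embryo, read 9.20, 9.70 and 8.78 at E10.5, against 6.11 and 6.24 in morulae and 7.33, 7.51 and 7.86 at E16.5, and Rarb (chr14:16430839-17082331, minus strand), itself a known target of retinoic acid, read 11.23, 11.65 and 11.30 at E10.5, against 7.08 and 7.61 in morulae and 8.23, 7.85 and 8.52 at E16.5.

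Both genes were highest in all 3 E10.5 embryos. The third nuclear receptor, Rarg (chr15:102234938-102257522, minus strand), differed from the morula by -2.34 and from E16.5 by 0.11 (limma adjusted p = 0.826). Rbp4, Rbp2 and Lrat were lower than at E16.5. Rbp4, the plasma carrier made by liver, read 8.21, 8.35 and 8.25 at E10.5, against 7.30 and 6.64 in morulae and 15.56, 15.06 and 15.82 at E16.5, while Rbp2, a retinol carrier of the gut, and Lrat, which esterifies retinol, lay within the receptor range at E10.5 and had contrasts of -2.65 and -0.97.

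Oncofetal RNA regulators, genes of the Lin28 and Igf2bp families and their partners that are known from embryos and tumours, had 12 of 16 members higher and 1 lower in the contrast, with a median of 1.49, and 6 above both stages. Igf2bp3 (chr6:49085218-49214954, minus strand), an mRNA-binding protein, read 14.01, 14.06 and 13.79 at E10.5, against 9.83 and 10.31 in morulae and 10.04, 9.95 and 9.78 at E16.5, with a contrast of 3.96 ± 0.20. Lin28b (chr10:45376619-45486395, minus strand), which blocks let-7 maturation, read 10.73, 10.57 and 10.50 at E10.5, against 7.56 and 7.74 in morulae and 6.86, 6.13 and 5.56 at E16.5. Its relative Lin28a (chr4:134003330-134018841, minus strand) followed another course, with 10.53, 10.86 and 10.26 at E10.5, against 11.84 and 12.91 in morulae and 5.48, 6.31 and 6.11 at E16.5.

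Lin28b was thus highest at E10.5 among the 3 stages and Lin28a in the morula. Hmga2 (chr10:120361275-120476935, minus strand), a chromatin protein and known let-7 target, read 9.27, 9.19 and 9.60 at E10.5, against 6.32 and 6.38 in morulae and 6.02, 5.80 and 5.61 at E16.5. Mycn (chr12:12936093-12941914, minus strand) had a contrast of 3.39 ± 0.27, Arid3a of 1.58 ± 0.26 and Mycl of 1.45 ± 0.20. Igf2bp2 averaged 12.98 ± 0.18 at E10.5 (SD, n = 3), against 12.66 ± 0.12 in morulae (SD, n = 2) and 9.45 ± 0.09 at E16.5 (SD, n = 3), and its difference from the morula did not pass (limma adjusted p = 0.356). Nr6a1, a nuclear receptor of germ cells and early embryos, had a contrast of -0.90 ± 0.24, with differences of -3.28 from the morula and 1.48 from E16.5. Against E16.5, 13 of the 16 were higher and none lower.

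Genes of DNA replication and mitosis had 53 of 70 members higher and 3 lower in the contrast (median 1.46), and 30 above both stages with none below. Against E16.5, 67 of the 70 were higher and 1 lower, and against the morula 31 were higher and 17 lower. Bub1 (chr2:127800200-127831865, minus strand), a kinase of the spindle checkpoint, read 13.67, 13.73 and 13.65 at E10.5, against 9.71 and 9.88 in morulae and 10.20, 10.34 and 10.01 at E16.5, a contrast of 3.70 ± 0.20 (limma adjusted p = 1.55e-09). Rrm2 (chr12:24708241-24714146, plus strand), a subunit of ribonucleotide reductase, read 15.32, 15.27 and 15.12 at E10.5, against 11.49 and 11.57 in morulae and 11.85, 12.10 and 11.40 at E16.5.

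In both genes the other stages lay within 1 log2 unit of each other and well below E10.5. Cenpf, a kinetochore protein, had a contrast of 3.07 ± 0.23. Mybl2, a transcription factor of the cell cycle, was the largest exception with 9.51, 9.78 and 8.68 at E10.5, against 14.55 and 14.81 in morulae and 6.68, 6.37 and 6.71 at E16.5. Cdkn1a, the kinase inhibitor described above, was low in the same E10.5 embryos. Between 24 members (cyclic loess) and 37 (centred on the receptor median) were above both stages in the settings tried.

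Cholesterol synthesis genes had 9 of 24 members above both stages and 1 below, with 14 higher and 4 lower in the contrast (median 1.07). The 9 included Hmgcs1, Idi1, Sqle, Cyp51, Msmo1, Hsd17b7, Srebf2 and Acat2. Hmgcs1 (chr13:119690446-119708086, plus strand), an enzyme of the pathway, read 16.62, 16.57 and 16.31 at E10.5, against 8.32 and 8.87 in morulae and 15.51, 15.59 and 15.79 at E16.5. Most of its contrast of 4.39 ± 0.22 came from the morula, and it exceeded E16.5 by 0.87 (limma adjusted p = 0.0101). Ebp, a sterol isomerase of the same pathway, was the member below both stages, with 7.03, 6.67 and 6.88 at E10.5, against 11.76 and 11.49 in morulae and 8.62, 8.41 and 9.01 at E16.5. Under cyclic loess 4 members were above and 4 below both stages.

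Of 38 early heart genes 15 were higher and 7 lower in the contrast, and 7 (18.4%) were above both stages and none below. Against the morula 25 were higher and 4 lower, but against E16.5 10 were higher and 14 lower (median difference -0.07). As a list they were thus high against the morula only. Myl7 (chr11:5896637-5898782, minus strand), the atrial light chain, read 11.26, 11.34 and 10.92 at E10.5, against 7.18 and 6.38 in morulae and 8.36, 9.25 and 8.45 at E16.5, and Mab21l2 (chr3:86545581-86548283, minus strand), a regulator of heart, eye and body wall, had a contrast of 4.13 ± 0.35. Nppa, the atrial natriuretic peptide, read 9.84, 10.36 and 10.95 at E10.5, against 3.65 and 3.97 in morulae and 10.68, 9.02 and 10.65 at E16.5. The E10.5 and E16.5 arrays of Nppa overlapped, and its contrast of 3.42 ± 0.37 came from the morula, with a difference from E16.5 of 0.27 (limma adjusted p = 0.678).

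Of 38 endothelial genes 18 were higher and 2 lower in the contrast, but 4 were above both stages, a share of 10.5% beside 10.7% of all genes. Fli1 (chr9:32422204-32542861, minus strand), an Ets factor of vessels and blood, read 10.65, 10.41 and 11.55 at E10.5, against 5.34 and 5.78 in morulae and 9.09, 9.19 and 9.49 at E16.5. Cdh5, the cadherin of endothelial junctions, had a contrast of 2.69 ± 0.35, with E10.5 above the morula by 7.05 and a difference of -1.67 from E16.5. Lyve1, a receptor of lymphatic vessels, lay within the receptor range at E10.5 (4.38 ± 0.12, SD, n = 3) and in morulae (4.75 and 4.08) and read 10.57, 9.87 and 10.85 at E16.5.

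Erythroid genes were led by the 3 embryonic globins, which were the only 3 of 36 members above both stages, a share of 8.33%. Against E16.5, 21 of the 36 were lower at E10.5 and 3 higher, and the list's median difference from E16.5 was -1.14. Car1, a carbonic anhydrase of definitive red cells, was among the 2 below both stages, with 4.35, 4.13 and 4.14 at E10.5, against 5.10 and 5.05 in morulae and 7.68 ± 0.31 at E16.5 (SD, n = 3), within the receptor range at E10.5 and in morulae.

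Intermediate mesoderm, kidney and gonad genes were mixed, with 8 of 33 members above both stages and 3 below, and 12 higher and 7 lower in the contrast. Centred on the upper quartile 6 were above both stages and 5 below. The genes named next are among those with a higher contrast. Sox9 (chr11:112782210-112787760, plus strand), a factor of cartilage, gonad and many epithelial buds, read 11.97, 11.64 and 12.08 at E10.5, against 6.43 and 6.34 in morulae and 8.29, 8.07 and 8.99 at E16.5, a contrast of 4.48 ± 0.24. Lhx9 (chr1:138825186-138848576, minus strand), a LIM homeodomain factor of gonad and limb, had a contrast of 3.70 ± 0.29, and Cbx2 (chr11:119022962-119031270, plus strand), a Polycomb subunit, of 2.74 ± 0.30. Gut tube, liver and pancreas bud genes had 5 of 38 above both stages and 1 below, and 17 had a lower contrast. Without the third E16.5 array 2 of these 38 were above both stages.

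Among the lists, lysosome genes had the largest share below both stages, with 22 of 48 members (45.8%), none above, and a median contrast of -1.28. Of the 48, 8 were lower than at all 4 other stages, beside 2.13% of all genes. The list mean was 8.85 in pronuclear and 9.12 in 2-cell embryos, against 10.07 in morulae and 8.71 at E10.5, so E10.5 lay close to the earliest level. The 22 included the membrane proteins Lamp1, Lamp2, Cd63 and Scarb2, the proteases Ctsa, Ctsc, Ctsh, Ctsz and Lgmn, the glycosidases Hexa, Gaa and Fuca1, the lipid enzymes and their activators Asah1, Smpd1, Psap and Gm2a, the sulfatase Ids, the sterol carrier Npc2, the growth factor precursor Grn and the autophagy receptor Sqstm1. Ctsh (chr9:90054152-90076095, plus strand) read 5.25, 5.48 and 6.05 at E10.5, against 9.98 and 10.42 in morulae and 11.05, 10.84 and 11.24 at E16.5, with a contrast of -5.03 ± 0.24 (limma adjusted p = 5.06e-10). Grn (chr11:102430315-102437048, plus strand) read 9.26, 9.52 and 8.74 at E10.5, against 15.96 and 15.99 in morulae and 11.82, 11.03 and 12.21 at E16.5.

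Both genes were lowest in the E10.5 embryos, with differences for Ctsh of -4.61 from the morula and -5.45 from E16.5, and for Grn of -6.80 and -2.51. Gm2a (chr11:55097985-55113029, plus strand), the activator of ganglioside degradation, had a contrast of -4.79 ± 0.23. Between 21 and 25 of the 48 genes were below both stages in the settings tried.

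Epithelial junction and keratin genes had 22 of 63 members below both stages and none above, with 43 lower and 2 higher in the contrast (median -1.43). Lower than at all 4 other stages were 11 of the 63, beside 2.13% of all genes. The list mean was 7.74 in pronuclear and 7.07 in 2-cell embryos, against 6.23 at E10.5. The 22 included the adhesion molecules Cdh1, Epcam, Cldn7 and Ocln, the keratins Krt8, Krt18 and Krt23 and the splicing regulator Esrp2. Sfn (chr4:133600556-133602168, minus strand), an epithelial adaptor protein, read 5.11, 5.17 and 5.49 at E10.5, against 14.37 and 14.07 in morulae and 8.96, 8.74 and 8.17 at E16.5, with a contrast of -6.16 ± 0.28. Cldn7 (chr11:69964779-69967886, plus strand), a tight junction protein, read 4.81, 5.14 and 4.61 at E10.5, against 14.65 and 14.76 in morulae and 5.82, 6.70 and 6.44 at E16.5.

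Both genes were within the receptor range at E10.5. Cdh1 (chr8:106603351-106670246, plus strand), the cadherin of epithelia, was looked up after its values were seen and read 8.75, 9.67 and 9.28 at E10.5, against 14.33 and 14.71 in morulae and 12.90 ± 0.10 at E16.5 (SD, n = 3), so it dipped while it stayed above the receptor range. Crb3, a polarity protein, had a contrast of -4.55 ± 0.26. Cldn6, a claudin of embryonic epithelia, was an exception with a contrast of 1.03 ± 0.25, its E10.5 level above that of E16.5 by 1.42.

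Genes of fatty acid oxidation and lipid storage had 14 of 49 members below both stages and none above, and 36 had a lower contrast (median -1.41). Of the 49, 4 were lower than at all 4 other stages, beside 2.13% of all genes. The list mean was 7.63 in pronuclear and 7.30 in 2-cell embryos, against 7.72 at E10.5. The 14 were Cpt1a, Slc25a20, Acadl, Acadm, Acaa2, Eci1, Etfa, Ppargc1b, Fabp3, Fabp4, Plin3, Pnpla2, Dgat2 and Cidea, which span import into mitochondria, the oxidation steps and lipid droplets. Cpt1a (chr19:3323301-3385733, plus strand), which controls entry of fatty acids into mitochondria, was looked up after its values were seen and read 4.96, 5.18 and 5.97 at E10.5, against 9.62 and 9.69 in morulae and 7.83, 7.97 and 8.98 at E16.5. Fabp4 (chr3:10204328-10208576, minus strand), a carrier of fat cells and vessels, read 4.83, 4.51 and 5.06 at E10.5, against 5.80 and 6.93 in morulae and 17.15, 17.32 and 16.45 at E16.5. The E10.5 means of Cpt1a and Fabp4 lay within the receptor range. Against E16.5, 43 of the 49 genes were lower and none higher (median difference -2.61), but against the morula 16 were lower and 10 higher (median -0.10), so the low median contrast of the list came mainly from E16.5.

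Glycogen and gluconeogenesis genes had 5 of 24 members below both stages and none above, but as a list they were low against E16.5 only. Against E16.5, 17 were lower and none higher (median difference -2.22), and against the morula 6 were lower and 11 higher (median 0.70). Ppp1r3b (chr8:35375741-35388139, plus strand), a glycogen-targeting phosphatase subunit, read 5.37, 6.02 and 5.07 at E10.5, against 11.33 and 11.42 in morulae and 9.32, 9.84 and 9.17 at E16.5. Fbp2 was given above, and its neighbour Fbp1 (chr13:62864753-62888282, minus strand) had a contrast of -4.40 ± 0.28, with the E10.5 and morula means both within the receptor range. Centred on the receptor median 3 of the 24 were below both stages.

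Glutathione, metallothionein and detoxification genes had 11 of 51 members below both stages and 1 above, with 11 higher and 21 lower in the contrast. Against E16.5, 27 were lower and 3 higher, but against the morula 19 were lower and 19 higher, so the list was low mainly against E16.5. Between 8 and 13 members were below both stages in the settings tried. Ephx1 (chr1:180976155-181020904, minus strand), an epoxide hydrolase, read 5.37, 5.07 and 5.39 at E10.5, against 10.05 and 10.22 in morulae and 8.97, 7.72 and 8.34 at E16.5. Its E10.5 mean lay within the receptor range. Gsta3 (chr1:21240585-21265575, plus strand) and Gsta2 (chr9:78331018-78355788, minus strand), glutathione transferases with close relatives whose probes may cross-read, had contrasts of -4.27 and -4.69. Txnrd1 (chr10:82833951-82897724, plus strand), a thioredoxin reductase, was the member above both stages, with 13.51, 13.64 and 13.70 at E10.5, against 10.77 and 10.95 in morulae and 11.16, 10.87 and 11.07 at E16.5.

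Immediate early genes had 6 of 30 members below both stages and 2 above. Sgk1 (chr10:21882184-21999903, plus strand), a kinase induced by serum and steroids, read 6.71, 6.66 and 6.56 at E10.5, against 9.91 and 9.96 in morulae and 8.73, 8.40 and 7.82 at E16.5. Klf4, a zinc finger factor of epithelia and pluripotent cells, had a contrast of -2.28 ± 0.33 and Dusp1, a phosphatase of MAP kinases, of -1.52 ± 0.25. Myc (chr15:61985341-61990374, plus strand) was one of the 2 above both stages, with a contrast of 2.19 ± 0.30.

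Pluripotency genes had 25 of 32 members lower than the morula and 5 lower than E16.5, with a median contrast of -1.69, and 5 (15.6%) were below both stages. Dppa3 (chr6:122626410-122630272, plus strand), a maternal and germ cell protein, read 3.54, 3.52 and 3.91 at E10.5, against 17.31 and 17.24 in morulae and 3.19, 3.89 and 3.40 at E16.5, and Pou5f1 (chr17:35506018-35510777, plus strand), a core pluripotency factor, read 3.23, 3.35 and 4.19 at E10.5, against 16.40 and 16.45 in morulae and 3.47, 3.91 and 3.64 at E16.5. E10.5 and E16.5 overlapped in both, within the receptor range, and Fbxo15, an F-box protein of pluripotent cells, also lay within it at both, with a contrast of -6.40 ± 0.25.

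Trophectoderm genes were mixed, with 10 of 33 members below both stages and 4 above. Aqp9 (chr9:71110659-71168682, minus strand), a water and glycerol channel, read 3.59, 4.08 and 4.01 at E10.5, against 14.61 and 14.89 in morulae and 5.61, 6.11 and 5.81 at E16.5. Its E10.5 mean lay within the receptor range. Yap1 (chr9:7931999-8004596, minus strand), the Hippo pathway's coactivator that binds Tead factors, was above both stages with 10.57, 10.24 and 11.12 at E10.5, against 6.27 and 7.54 in morulae and 8.62, 7.55 and 9.08 at E16.5. Under cyclic loess 2 of the 33 were above both stages.

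Lists of liver, muscle and epidermis genes, tissues that are in place at E16.5, had the lowest medians. Liver plasma protein genes had a median contrast of -4.19, with 38 of 39 members lower than E16.5, 7 lower and 13 higher than the morula, and 6 below both stages. Ahsg (chr16:22892015-22899451, plus strand), a plasma glycoprotein, read 4.65, 4.31 and 4.42 at E10.5, against 6.74 and 6.24 in morulae and 18.14, 17.96 and 18.23 at E16.5, and Kng1 (chr16:23057865-23082078, plus strand), the kininogen, read 4.20, 4.37 and 3.69 at E10.5, against 8.96 and 7.53 in morulae and 15.90, 15.08 and 16.23 at E16.5. The E10.5 means of Ahsg and Kng1 lay within the receptor range. The number of liver genes below both stages was 3 centred on the receptor median and 13 centred on the upper quartile.

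Alb (chr5:90460889-90476603, plus strand) and Serpina1a, a protease inhibitor with near-identical copies, were above the morula by 1.74 and 0.82 while their contrasts were -4.71 ± 0.25 and -4.66 ± 0.20. Apoa1, an apolipoprotein, had a contrast of -6.10 ± 0.30. Skeletal muscle genes had 33 of 34 members lower in the contrast and 4 below both stages (Mylpf, Myh1, Myh4 and Chrnd), and 1 of 34 centred on the receptor median. Myf5 (chr10:107482908-107486134, minus strand), the early myogenic factor, was the exception with a contrast of 1.05 ± 0.20, and E10.5 (5.99, 5.71 and 6.11) overlapped E16.5 (6.19, 6.16 and 5.92).

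Epidermis genes had 29 of 33 members lower in the contrast and 8 below both stages. Perp (chr10:18845071-18857078, plus strand), a desmosome protein, read 7.57, 7.82 and 7.81 at E10.5, against 11.97 and 12.31 in morulae and 13.83, 13.77 and 13.64 at E16.5, and Krt1, a keratin of the stratified skin, read 4.87, 5.57 and 4.59 at E10.5, against 5.29 and 5.26 in morulae and 17.75, 18.21 and 17.42 at E16.5. Krt1 lay within the receptor range at the 2 earlier stages and Perp at none.

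Placenta and decidua markers, which would show tissue of the mother or the placenta carried along, had 23 of 26 members within the receptor range at all 3 stages, and the list mean ran from 4.17 to 4.38 on the E10.5 arrays, from 4.64 to 4.99 on the morula arrays and from 3.93 to 4.36 on the E16.5 arrays. None was above or below both stages, and Plac1, a trophoblast gene, had the largest contrast at 1.51 ± 0.23. Y-linked genes differed between single embryos. Ddx3y, an RNA helicase gene of the Y chromosome picked after its values were seen, read 5.07, 4.57 and 10.48 at E10.5, against 8.87 and 9.84 in the morula pools and 11.06, 5.31 and 11.03 at E16.5, which put 1 of 3 E10.5 embryos and 2 of 3 E16.5 embryos at the high level, and none of 4 sex-linked markers passed the contrast. Without the third E10.5 array, the embryo at the high level, 3 of the 4 were lower in the contrast and 1 was below both stages.

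The transient genes were also compared with the stages before the morula. Of the 2266, 1509 were higher than at all 4 other stages, 7.13% of all genes and 66.6% of the transient ones, and 451 of the 1073 genes that dipped (42.0%, and 2.13% of all genes) were lower than at all 4. In 266 transient genes the pronuclear mean was higher than the E10.5 mean, past the threshold. Cholesterol and hedgehog, Bmp and Notch list means were flat or falling over the 3 early stages and highest at E10.5, while those of lysosome and epithelial genes were highest at the morula stage or E16.5.

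**Figure D5:**
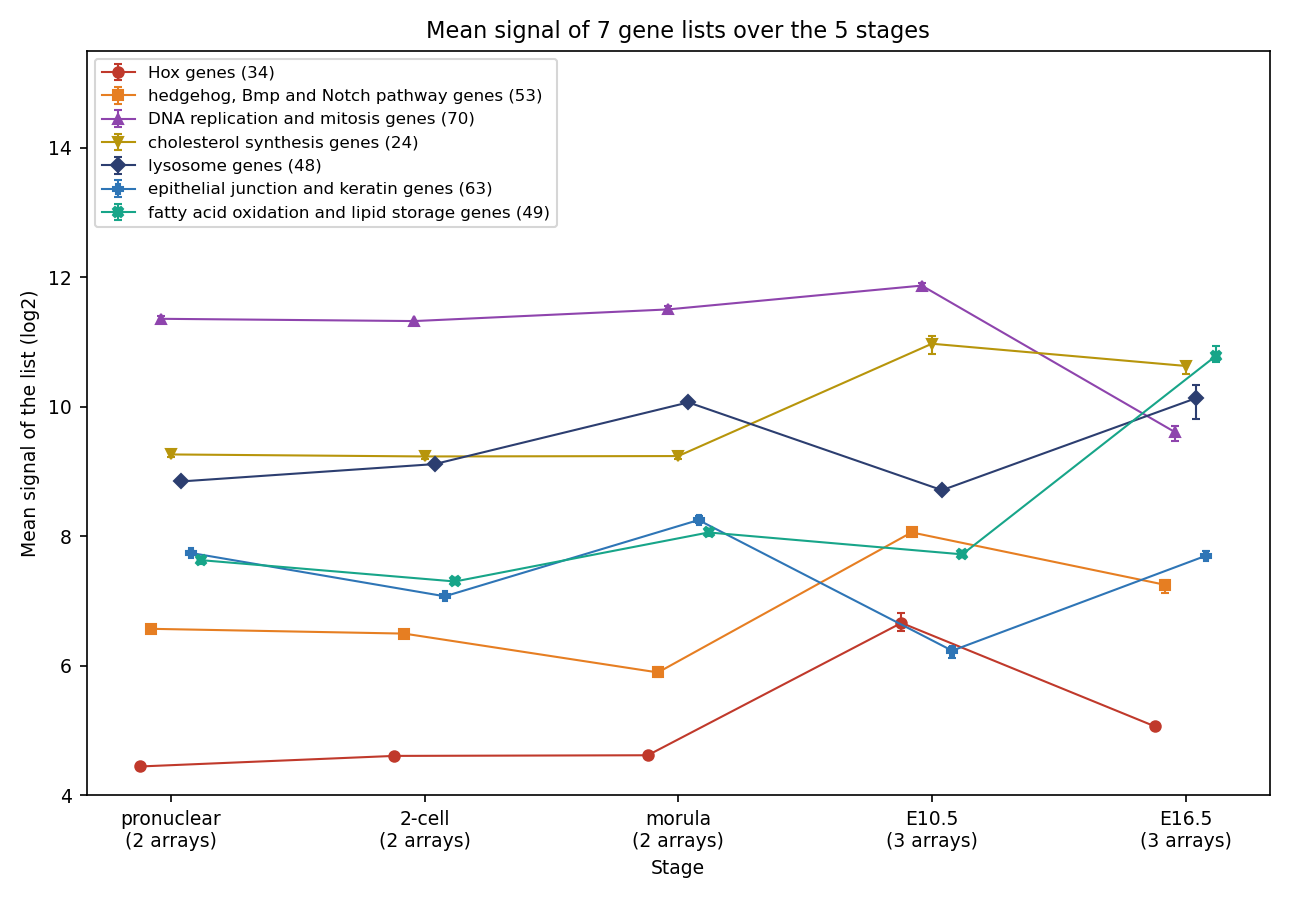
Mean log2 signal of 7 gene lists (number of genes in brackets) at each of the 5 stages in time order, with points for the stage mean and bars from the lowest to the highest array. Hox genes averaged 6.66 at E10.5, against 4.62 in morulae and 5.06 at E16.5, and epithelial junction and keratin genes 6.23 at E10.5, against 8.25 in morulae and 7.70 at E16.5. Levels of different lists are not comparable as amounts.

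The median SD among the 3 E10.5 embryos was 0.18 in transient genes and 0.24 in genes that dipped, against 0.22 over all genes, values that the tests which chose these genes also depend on. Picked after the values were seen, the transient genes with the widest spread among the embryos included Gabrp, a GABA receptor subunit, with an SD of 0.91, and Barx1, a homeodomain factor of arches and stomach, with an SD of 0.86. Of the genes below both stages 458 of 1073 lay within the receptor range at E10.5 and 75 at all 3 stages, and 42 of the 2266 transient genes lay within it at E10.5.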

How the data were processed

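Whole mouse embryos were profiled on Clariom S Mouse arrays. The authors deposited log2 signals per probe set (SST-RMA, per the file headers), annotated with na36 on mm10. Per the submitters' processing notes the software was Transcriptome Analysis Console, version not given. A second deposited table held the same log2 values (0 probe sets differed). Array medians ran from 6.19 to 6.59, signals reached 19.53, and a log2 unit need not equal a doubling of RNA. Arrays carry no counting depth, and their number limits the precision.

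Of 22206 probe sets, 21367 had 1 symbol (836 several, 3 none), and the brightest of each gene was kept, leaving 21156 genes. Positions are the authors' on mm10 and span the annotated transcript. limma 3.58.1 in R 4.3.3 (lmFit, contrasts.fit, eBayes) fitted 5 stage means to all 12 arrays, with two-sided tests and Benjamini-Hochberg adjustment across the 21156 at 0.05, and was tested on simulated data. Genes above or below both stages passed both differences. Errors are the fit's SE or the SD of arrays.

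Named genes are the 10 with the largest smaller difference in each direction without overlap, the 5 largest contrasts in each direction, from each list the 3 largest in its direction and the 1 opposite, and all Hox, retinoic acid, oncofetal, Fgf and Wnt members. Provisional names and chemosensory receptors were left out, and a few genes that met the rule are not reported here. Members, lists and comparisons were chosen with earlier results of these data known. Promoters are RefSeq's on GRCm38.p6, matched by symbol, accession or synonym. Python 3.11.15 and matplotlib 3.10.9 drew the figures.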

Additional observations from a re-analysis of the deposited data

How the results depend on the processing

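Of 214 named genes, none changed the sign of a called contrast in any setting; over all settings 3890 contrasts kept their call, 80 lost it and 66 gained it. Of the list medians over the settings, 372 moved by less than the spread between the E10.5 arrays and 186 by more; 4 of them took the opposite sign, in the Fgf and Wnt, erythroid and placenta lists, whose medians lie near 0. Below both stages, 668 genes passed at an adjusted p of 0.01, and 1897 (8.97%) had all E10.5 arrays under all others with no test. Against the morula, 3387 genes were lower with arrays centred on the receptor median, where the median difference of all genes was 0.32, beside -0.16 as deposited and -0.43 for the upper quartile. Leaving out each array in turn gave 4232 to 4813 genes higher and 4069 to 4935 lower in the contrast, 4716 to 5486 higher and 4674 to 5932 lower than the morula, 3574 to 4398 higher and 3233 to 3783 lower than E16.5, 1820 to 2177 above both stages and 830 to 1127 below both. With the replicate number as a block 2099 genes were above and 986 below both stages. No count with the block or with an array left out moved by over 1.5 times from the main fit. The counts of 668, 1897 and 3387 given above did. Same-numbered arrays had deviations from their stage means that correlated at -0.11 to 0.03. The deviations of the 2 morula arrays mirror each other, so these values cannot decide whether the numbers pair the samples. With E16.5 tested in the 6 later arrays alone, an alternative chosen after seeing the data, 2385 genes were above both stages (2245 shared with the 2266) and 1127 below (1060 shared). Each stage has 2 or 3 arrays, the morula differences carry date and pooling, and signals within the receptor range give no lower level.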

Other observations

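Some genes of the lists sit on probe sets that carry a second symbol and were therefore not among the 21156 genes; they were examined after seeing the data, in a fit over every probe set. The largest positive contrast was that of the oncofetal mRNA-binding protein Igf2bp1, whose probe set also names a microRNA in the gene, with 15.30 ± 0.08 at E10.5 (SD, n = 3), against 10.13 ± 0.67 in morulae (SD, n = 2) and 7.65 ± 0.48 at E16.5 (SD, n = 3), a contrast of 6.41 ± 0.29 (SE, limma adjusted p = 2.48e-10). Hmga1, a chromatin protein read together with a copy of itself, had a contrast of 5.04 ± 0.23, with 15.27 at E10.5, against 9.58 in morulae and 10.88 at E16.5. The replication helicase subunit Mcm7 (2.47), the Hox genes Hoxb4 (2.60), Hoxa9 (2.17) and Hoxa7 (0.98), the joint probe set of Hoxd3 and Hoxd4 (2.78), the mesoderm factor T (1.79) and the neural factor Pou3f3 were also above both stages.

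Below both stages were the apolipoprotein Apoc2, read together with Apoc4, which had the largest contrast of these probe sets in size (-7.61 ± 0.21), Etfb, an electron carrier of fatty acid oxidation, with a contrast of -4.39 ± 0.20, and the lysosomal enzymes Glb1 (-2.38) and Ctsd (-2.13). The adult alpha globin probe sets, which read both gene copies, followed another course than the embryonic globins: 1 of them read 17.72 ± 0.23 at E10.5, against 4.78 ± 0.38 in morulae and 19.26 ± 0.16 at E16.5, so that its difference from E16.5 was -1.54 log2 units while its contrast was 5.70. The adult beta globin probe set read 13.46 ± 0.38 at E10.5, against 4.83 ± 0.71 in morulae and 19.46 ± 0.06 at E16.5.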
